A study of Mus musculus with 3 samples.

Results

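The histone cluster genes are the genes of the mouse replication-dependent histones that lie in 4 groups, named Hist1 to Hist4 in their symbols. All rows of the deposited accessibility table whose gene symbol begins with Hist1h, Hist2h, Hist3h or Hist4h were taken, which gave 66 of 18890 genes. They comprised 6 genes for the linker histone H1, 18 for H2A, 18 for H2B with the pseudogene *Hist3h2bb-ps* among them, 12 for H3 and 12 for H4. Hist1 held 52 genes on chromosome 13, Hist2 held 10 on chromosome 3, Hist3 held 3 on chromosome 11 and Hist4 held 1 on chromosome 6. Because neighbouring genes are assigned the same accessible regions, 39 of the 66 genes had exactly the heights of at least 1 other histone gene in all libraries. Counting each such set once left 43 sets of heights, comprising 27 single genes, 10 pairs, 5 triples and 1 set of 4 genes. Counts of genes below are counts of these 43 unless stated otherwise, and a shared set is called by 1 of its genes. Sets with different heights can still share some regions, since a single region was assigned to up to 7 histone genes. The 43 are therefore not separate measurements.

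The organoids were grown from primary basal epithelial cells of wild-type mouse prostate. They were cultured for 7 days with 10 µM UK5099, an inhibitor of the mitochondrial pyruvate carrier, with 20 mM sodium lactate, or with vehicle, and each condition had 1 ATAC-seq library. The methods give male C57BL/6J mice, 3 to 6 months old, as the source of primary prostate cells, and the sources used here do not say how many animals a library held. A group of 1 library gives no spread between cultures, so the differences are described without tests or p-values.

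DNA in the nucleus is wound around octamers of the core histones H2A, H2B, H3 and H4, and H1 binds the linker DNA between them. Cells make most of this protein while they copy their DNA, from clustered genes that have no introns, whose mRNAs end in a stem-loop in place of a poly(A) tail, and that NPAT and its partners switch on together. In many animals H2A and H2B genes stand in head-to-head pairs with 1 shared promoter between them.

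ATAC-seq marks open chromatin, since a transposase inserts adaptors where DNA is not covered. The unit used here is the average peak height of a gene, the number of stacked reads at the highest point of an accessible region, scaled by the authors and averaged over all regions assigned to the gene within about 10 kb. Counting intervals in parentheses are exact 95% intervals of a ratio of heights, computed from stacked reads, and cover counting error only. In bulk organoids a smaller share of cells with an open site and a less open site in each cell cannot be told apart.

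If the deposited scaling equalised depth, lactate was sequenced 2.12 times and vehicle 1.74 times as deeply as UK5099. Behind the heights of a histone gene stood a median of 330 stacked reads in UK5099, 692 in lactate and 473 in vehicle. The basal markers *Krt5*, *Krt14* and *Trp63* had called peaks in all 3 libraries, but so did the luminal markers *Krt8*, *Krt18* and *Cd24a*, the endothelial markers *Pecam1* and *Vwf*, the 4 stromal markers and *Ptprc*. Called peaks alone thus do not tell these cell types apart here. The basal markers had UK5099 over vehicle at 1.32 for *Krt5*, 1.49 for *Krt14* and 1.39 for *Trp63*, and the luminal markers at 0.819 for *Krt8*, 0.376 for *Krt18* and 0.828 for *Cd24a*. Lactate over vehicle was 1.24 to 1.31 over the basal and 0.986 to 1.20 over the luminal markers. The part of cell type shares in the histone results was not tested.

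The promoters below come from RefSeq on GRCm38, the assembly that mm10 names, and are the bases just before the transcription start, written 5′ to 3′ on the gene's strand. They are shown because the highest UK5099 ratio among single regions solved at a gene start (*Hist1h1e*) and several contrasting ones lie on them, or because they belong to duplicate genes with long identical stretches. *Hist1h1e* (chr13:23622559-23622758, minus strand) encodes a linker histone, and *Hist1h3b* (chr13:23752145-23752344, plus strand) an H3. *Hist1h2bg* (chr13:23571221-23571399, plus strand) encodes an H2B, and its 179 bases are the whole stretch between its start and that of the opposite H2A gene *Hist1h2ae*. *Hist1h4b* (chr13:23756737-23756936, plus strand) and *Hist1h4f* (chr13:23551669-23551868, minus strand) both encode H4. *Hist2h2aa1* (chr3:96245297-96245496, plus strand) and *Hist2h2aa2* (chr3:96240375-96240574, minus strand) are duplicate H2A genes. Capitals mark, on either strand, the TATA box core TATAAA, the box CCAAT, the octamer ATTTGCAT, the H1 box AAACACA and the H4 element GGTCC, and in *Hist1h3b* the last CCAAT overlaps GGTCC.
Hist1h1e: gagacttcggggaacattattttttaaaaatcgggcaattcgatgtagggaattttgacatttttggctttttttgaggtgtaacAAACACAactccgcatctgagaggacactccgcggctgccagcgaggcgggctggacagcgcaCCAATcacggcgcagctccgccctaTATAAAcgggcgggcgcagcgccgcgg
Hist1h2bg: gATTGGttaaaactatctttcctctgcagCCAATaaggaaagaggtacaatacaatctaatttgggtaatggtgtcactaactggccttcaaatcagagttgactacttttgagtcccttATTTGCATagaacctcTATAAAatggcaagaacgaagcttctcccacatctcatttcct
Hist1h3b: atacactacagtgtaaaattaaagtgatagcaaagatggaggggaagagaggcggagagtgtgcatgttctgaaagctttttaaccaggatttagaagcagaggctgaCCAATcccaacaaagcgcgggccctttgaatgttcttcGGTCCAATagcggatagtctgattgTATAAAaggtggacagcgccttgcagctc
Hist1h4b: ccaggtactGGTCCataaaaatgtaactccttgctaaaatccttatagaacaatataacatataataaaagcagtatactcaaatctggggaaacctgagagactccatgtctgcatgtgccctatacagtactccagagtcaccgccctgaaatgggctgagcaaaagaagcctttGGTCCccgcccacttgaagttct
Hist1h4f: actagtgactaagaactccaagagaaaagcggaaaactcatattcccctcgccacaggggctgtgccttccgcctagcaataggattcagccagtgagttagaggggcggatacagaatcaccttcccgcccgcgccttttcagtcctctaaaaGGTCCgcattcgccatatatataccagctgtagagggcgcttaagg
Hist2h2aa1: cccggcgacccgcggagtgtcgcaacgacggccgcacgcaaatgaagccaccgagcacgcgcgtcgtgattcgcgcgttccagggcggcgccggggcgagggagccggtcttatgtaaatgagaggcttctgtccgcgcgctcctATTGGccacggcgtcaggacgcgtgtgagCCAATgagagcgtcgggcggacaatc
Hist2h2aa2: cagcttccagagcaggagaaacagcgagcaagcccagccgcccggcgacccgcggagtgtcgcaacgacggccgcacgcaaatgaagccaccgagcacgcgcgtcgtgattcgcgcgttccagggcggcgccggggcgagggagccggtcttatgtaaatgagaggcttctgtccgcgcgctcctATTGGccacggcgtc

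The letters differed by histone type. A RefSeq promoter, 250 bases before to 50 bases after the start, could be matched by gene ID for 59 of the 66 genes. CCAAT, the box bound by NF-Y, stood on either strand in 51 of the 59, against 37.9% of all 27025 RefSeq promoters of the same length. It was in every H1, H2A, H2B and H3 promoter matched and in 3 of 11 H4 promoters, and neither H4 promoter printed above holds it. TATAAA, the core of the TATA box, was in 34 of the 59, against 14.2% of all promoters. The octamer ATTTGCAT, which Oct-1 binds, was in 7 of 17 H2A and 6 of 15 H2B promoters and in no H1, H3 or H4 promoter, against 1.75% of all promoters. Some head-to-head H2A and H2B genes share their promoter stretch, so the same site can be counted for both types. The octamer and the TATAAA between *Hist1h2ae* and *Hist1h2bg*, for example, were each counted for both genes. AAACACA, known as the H1 box, was in 5 of 6 H1 promoters, against 7.14% of all promoters. In *Hist1h1e* it begins 115 bases before the start, CCAAT 52 bases and TATAAA 27 bases before it. GGTCC, the core of an element described in H4 promoters, was in 10 of 11 H4 promoters, but these 5 letters also occur in 45.4% of all promoters. A match gives the letters alone and does not show that a factor binds there.

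The first comparison addresses how a block of pyruvate import affects open chromatin at the histone genes. In UK5099-treated organoids most of these genes stood slightly higher than in vehicle, and they stood high in all libraries. Their median height was 110.0 in UK5099 and 79.1 in vehicle, whereas all genes had medians of 58.7 in UK5099 and 51.3 in vehicle. The median ratio of UK5099 over vehicle was 1.30 over the histone genes, and 40 of 43 were above 1. So were 14291 of the 18889 genes with a height above 0 in both libraries. Because the median over all genes was itself 1.15, a gene counts as above the rest only if it exceeds that value, which 34 of 43 histone genes did. At the study's threshold of 1.5 or more there were 4 histone genes, and 9.05% of all genes reached it. At 0.5 or less there was 1, and 1.36% of all genes lay there. Few histone genes were thus far from vehicle, and their share past either threshold was close to that of all genes. Higher genes had slightly higher ratios throughout the table. Among genes with a mean height at or above the upper quartile of 84.0, the median was 1.35 over 25 histone genes and 1.19 over all genes.

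The lactate comparison addresses whether lactate, supplied from outside, moves the same sites. The median height of the histone genes was 101 in lactate and 79.1 in vehicle, with a median ratio of 1.24 against 1.18 for all genes. Of the 43, 39 were above 1 and 32 above the median gene, and 15701 of all 18890 genes were above 1. At 1.5 or more there was 1 histone gene, with 6.07% of all genes there, and none was at 0.5 or less, with 0.513% of all genes there. Above that quartile of height the median was 1.26 for histone genes and 1.20 for all genes. Both treatments were set against the same vehicle library, so their ratios are not independent of each other. Set directly against lactate, UK5099 gave a median ratio of 1.08 over the histone genes and 0.983 over all genes. Here 36 of 43 histone genes were above the median gene, 2 were at 1.5 or more, with 3.71% of all genes, and none at 0.5 or less, with 1.43% of all genes.

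**Figure D1:**
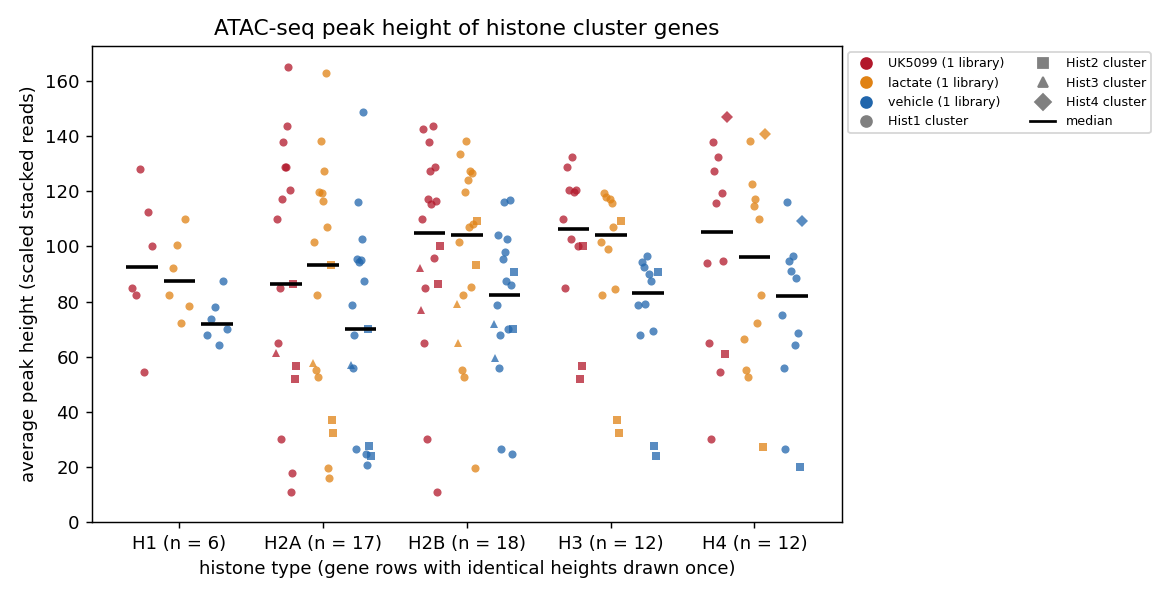
Average peak height (scaled stacked reads, vertical axis) of histone cluster genes by histone type; each point is a gene or a set of genes with identical heights, in the UK5099, lactate and vehicle library (1 each), the shape gives the cluster and the bar the median. H3 and H4 genes had medians of 106 and 105 in UK5099, 104 and 96.3 in lactate, and 83.2 and 82.0 in vehicle, and the lowest points were *Hist1h2ba* with *Hist1h2aa* at 11 in UK5099, *Hist1h2al* at 16.0 in lactate and *Hist2h4* at 20.1 in vehicle.

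By histone type the medians of UK5099 over vehicle lay close together. They were 1.27 for H1, 1.23 for H2A, 1.27 for H2B, 1.37 for H3 and 1.31 for H4, over 6, 17, 18, 12 and 12 counted genes. Sets that hold genes of several types enter each of them, so these medians share values. Of the 12 H3 genes, which encode the core histone whose tail carries many of the known marks, all were above 1 and 11 above the median gene. Of all 18889 genes, 14291 were above 1. Only 4 of the 12 H3 genes had a called peak within 500 bp of the start, so the values of the others describe regions farther away. Lactate over vehicle gave 1.23 for H1, 1.23 for H2A, 1.22 for H2B, 1.26 for H3 and 1.23 for H4. No type was thus set off from the others by more than the range within each type, which ran for H3 from 1.10 to 2.37 in UK5099 over vehicle.

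The 6 linker histone genes all lie in Hist1. *Hist1h1e* had heights of 128 in UK5099, 100 in lactate and 78.2 in vehicle. Its ratio of UK5099 over vehicle was 1.64 (1.28 to 2.10), the highest in Hist1, and lactate over vehicle was 1.28 (1.03 to 1.60). It has a single region, which covers the promoter printed above and that of the neighbouring H2B gene *Hist1h2be*. *Hist1h1a* stood at 100 in UK5099, 78.5 in lactate and 69.9 in vehicle, with UK5099 over vehicle at 1.43 (1.23 to 1.68) and lactate over vehicle at 1.12. These heights average several regions. The single region 20 bp from its start, solved as described below, had 57.0 in UK5099, 65.0 in lactate and 48.9 in vehicle. UK5099 over vehicle was 1.17 (0.819 to 1.65) there, and lactate over vehicle was 1.33. A peak was called there in UK5099 and lactate but not in vehicle. Among the libraries compared, the region was thus listed through those in which it was higher. *Hist1h1c*, a main H1 gene of somatic tissues, stood at 112.5 in UK5099 and 110.1 in lactate, against 87.5 in vehicle, a ratio of 1.29 for UK5099. Its nearest called peak lay 6857 bp away, so this height describes neighbouring sites, the starts of *Hist1h3c* and *Hist1h2bb* among them. *Hist1h1b*, whose protein is made mostly in dividing cells, was at 85.0 in UK5099, 82.3 in lactate and 68.0 in vehicle. *Hist1h1d* was at 82.3 in UK5099 and 92.3 in lactate, against 73.8 in vehicle. By gene average it was thus the only H1 gene besides *Hist1h1t* with UK5099 below lactate. Single regions at starts differed from this. The region 8 bp from the start of *Hist1h1d* had 92.0 in UK5099 and 91.9 in lactate, against 71.3 in vehicle. At the start of *Hist1h1a* UK5099 over lactate was 0.877 (0.632 to 1.20), an interval that spans 1. *Hist1h1t*, the testis linker histone, shared with the H4 gene *Hist1h4c* heights of 54.5 in UK5099, 72.1 in lactate and 64.4 in vehicle. Its ratio of UK5099 over vehicle, 0.847 (0.667 to 1.07), was the only one below 1 among the H1 genes.

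The highest ratios of UK5099 over vehicle in any cluster came from Hist2. *Hist2h4*, which encodes H4, stood at 61 in UK5099, 27.3 in lactate and 20.1 in vehicle, a ratio of 3.03 (1.97 to 4.74) for UK5099 over vehicle and 1.36 (0.878 to 2.13) for lactate over vehicle. *Hist2h2aa1* and its H3 neighbour *Hist2h3c1* stood at 56.5 in UK5099 and 32.3 in lactate, against 23.9 in vehicle, a ratio of 2.37 (1.77 to 3.18) for UK5099 and 1.35 for lactate. *Hist2h2aa2* and its H3 neighbour *Hist2h3c2* stood at 52.0 in UK5099 and 37.2 in lactate, against 27.6 in vehicle, a ratio of 1.88 (1.25 to 2.85) for UK5099 and 1.35 for lactate. UK5099 was thus the highest library for all 5 genes. Their 3 ratios rested on 2 regions, however, since the heights of *Hist2h2aa1* are the average of the region of *Hist2h4* and that of *Hist2h3c2*. The region of *Hist2h4* peaks 7221 bp from its start, inside the noncoding gene Gm20627 and 181 bp from the start of that gene. The region of *Hist2h3c2* lies in its exon, 919 bp from its start. In vehicle, *Hist2h4* was higher than only 8.53% of all genes, and its ratio rested on 61 stacked reads in UK5099, 58 in lactate and 35 in vehicle. Its region had a called peak in UK5099 and vehicle but not in lactate.

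The other 5 Hist2 genes were higher in level and closer to the median gene. *Hist2h2ab*, *Hist2h2ac* and *Hist2h2be*, for H2A, H2A and H2B, shared heights of 86.2 in UK5099, 93.3 in lactate and 70.0 in vehicle. Their ratios were 1.23 (1.07 to 1.42) for UK5099 over vehicle and 1.33 (1.19 to 1.5) for lactate over vehicle. *Hist2h3b* and *Hist2h2bb* shared 100 in UK5099, 109 in lactate and 90.8 in vehicle, with UK5099 over vehicle at 1.10 (0.849 to 1.42), below the median gene. The region behind that pair lies 8492 bp from the start of *Hist2h2bb*. UK5099 was below lactate for both sets.

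Hist3 gave little difference for lactate. *Hist3h2ba* was at 92.3 in UK5099, 79.2 in lactate and 72.0 in vehicle, and *Hist3h2bb-ps* at 77.0 in UK5099, 65.0 in lactate and 59.6 in vehicle. The H2A gene *Hist3h2a* was at 61.2 in UK5099, 57.6 in lactate and 57.0 in vehicle. Their ratios were 1.28, 1.29 and 1.07 for UK5099 over vehicle and 1.10, 1.09 and 1.01 for lactate over vehicle, and none of the 3 exceeded the median gene in lactate. *Hist4h4*, the only Hist4 gene, was high at 147 in UK5099, 141 in lactate and 109 in vehicle, with ratios of 1.35 (1.08 to 1.68) for UK5099 and 1.29 for lactate. Its single region lies 3777 bp from its start and 28 bp from that of *H2afj*, an H2A variant gene outside the clusters that had the same heights. No peak was called at the start of *Hist4h4* itself.

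**Figure D2:**
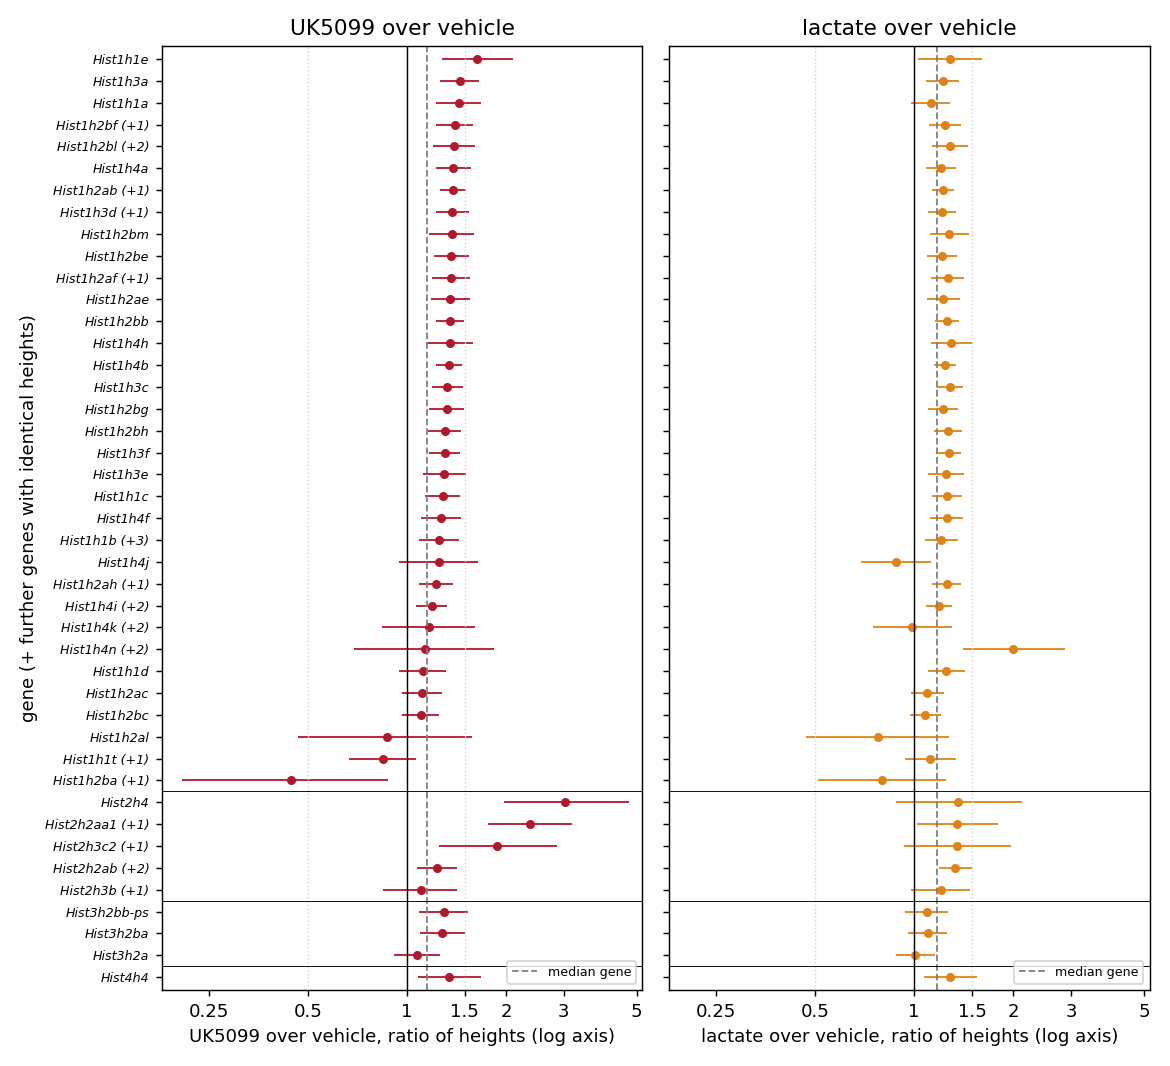
Ratio of average peak heights (log axis) of UK5099 over vehicle, left, and of lactate over vehicle, right, for the 43 histone genes or sets of identical heights, with Hist1 to Hist4 from top to bottom; points are ratios of 1 library to another, bars are 95% counting intervals and the dashed line is the median of all genes. Most Hist1 genes lay between 1.1 and 1.5 in both panels, and the 3 Hist2 sets at 1.88 to 3.03 in UK5099 lay at 1.35 to 1.36 in lactate.

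By gene average the Hist1 ratios were narrow apart from a few low genes, but neighbouring genes average many of the same regions. Of the 34 counted genes, 31 were above 1 for UK5099 over vehicle, with a median of 1.31, and only *Hist1h1e* reached 1.5. It was at 1.42 after scaling by the median of ratios and 1.41 after scaling to the same total, which left 3 histone genes at 1.5 or more. After it came *Hist1h3a* at 1.45 (1.26 to 1.66), *Hist1h1a* at 1.43 and *Hist1h2bf* with *Hist1h2ad* at 1.40. The nearest called peak of *Hist1h3a* lay 722 bp from its start, and the region at the start of *Hist1h1a* gave 1.17. The most accessible gene was the H2A gene *Hist1h2ac*, at 165 in UK5099, 163 in lactate and 149 in vehicle, above 97.3% of all genes in vehicle. By gene average, it and the H2B gene *Hist1h2bc* had ratios of only 1.11 (0.963 to 1.28) and 1.10 for UK5099 over vehicle, below the median gene. The single region on their shared promoter was above the median gene, at 1.25 (1.07 to 1.46). *Hist1h4i*, with *Hist1h2ag* and *Hist1h2bj*, stood at 138 in UK5099 and 138 in lactate, against 116 in vehicle, and *Hist1h2bm* at 142.5 in UK5099 and 134 in lactate, against 104 in vehicle.

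The lowest mean heights over the 3 libraries belonged to testis histone genes and to a pseudogene. *Hist1h2ba* and *Hist1h2aa*, which encode the testis forms of H2B and H2A, shared heights of 11 in UK5099, 19.8 in lactate and 24.7 in vehicle. UK5099 over vehicle was 0.445 (0.207 to 0.878), the lowest of all histone genes, on 11 stacked reads in UK5099, 42 in lactate and 43 in vehicle. *Hist1h2al*, a processed pseudogene in GENCODE that lies far from the rest of Hist1, stood at 18 in UK5099, 16.0 in lactate and 20.7 in vehicle, with a ratio of 0.870 (0.465 to 1.57) for UK5099. *Hist1h2ba*, *Hist1h2aa* and *Hist1h1t* had no called peak at their starts, and their nearest peaks lay 5260, 5566 and 3683 bp away. So their values describe open sites in the neighbourhood and not their promoters.

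*Hist1h4n*, with *Hist1h2ap* and *Hist1h2br*, was the only set to reach 1.5 in lactate over vehicle. It stood at 30.0 in UK5099, 52.8 in lactate and 26.4 in vehicle, a ratio of 2.0 (1.40 to 2.88) for lactate over vehicle and 1.13 (0.692 to 1.84) for UK5099 over vehicle. UK5099 over lactate was 0.569 (0.367 to 0.857). In UK5099 this set had no called peak and 30 stacked reads. The region lies 3454 bp from the start of *Hist1h4n*, outside any annotated gene. *Hist1h4j* went the other way, at 94.0 in UK5099, 66.4 in lactate and 75.3 in vehicle, with UK5099 over lactate at 1.42 (1.08 to 1.85) and lactate over vehicle at 0.882 (0.691 to 1.13). The set of *Hist1h4k*, *Hist1h2ak* and *Hist1h2bn* was nearly level in lactate, at 65 in UK5099, 55.1 in lactate and 55.7 in vehicle. *Hist1h4h*, with its nearest called peak 2780 bp away, was at 127.5 in UK5099, 123 in lactate and 94.5 in vehicle, with lactate over vehicle at 1.30.

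Because a gene's height averages up to 7 regions, the overlapping windows of neighbouring genes were used to solve for the heights of single regions. The 66 genes were assigned 55 regions, and 32 of these could be solved exactly. The deposited highest height of a gene was matched within 0.05 for 32 of the 34 genes with all regions solved, the others being *Hist1h2ba* and *Hist1h2aa*, whose region was called only in lactate. Of the solved regions, 17 peaked within 500 bp of a histone gene's start and 15 lay farther away. These regions and the genes named with them were chosen after their values were seen.

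Of 31 regions at histone gene starts, the 14 not solved have no value of their own. In the solved ones UK5099 was higher than vehicle in 17 of 17. Their median height was 100 in UK5099, 92.8 in lactate and 75.3 in vehicle. UK5099 over vehicle had a median of 1.39 and a range of 1.11 to 1.64, 15 of 17 lay above the median gene, and 5 were at 1.5 or more. One of the 5, at *Hist1h3c*, was called as a peak in UK5099 alone, so the library with its highest height also put it on the list. The 14 solved start regions called in all 3 libraries had a median of 1.36, with 14 above 1, 12 above the median gene and 4 at 1.5 or more. Over all 17, lactate over vehicle had a median of 1.20 and a range of 0.882 to 1.53, with 9 of 17 above the median gene and 1 at 1.5 or more. As a background, 2380 other genes with a single region at their start, counted once, had medians of 1.15 for UK5099 over vehicle and 1.17 for lactate over vehicle. Of them, 74.2% were above 1 and 7.98% at 1.5 or more for UK5099 over vehicle, and 81.8% and 7.06% for lactate over vehicle. For the 1736 of them whose vehicle height was within the range of the solved start regions, 4.67% reached 1.5 in UK5099 and 3.40% in lactate, with medians of 1.15 and 1.18. The 15 regions farther away were spread from 0.283 to 3.03 in UK5099 over vehicle, with a median of 1.06 and 8 above 1. The median was thus higher at starts than away from them for UK5099 over vehicle and 1.20 at both for lactate over vehicle, a difference that has no test.

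**Figure D3:**
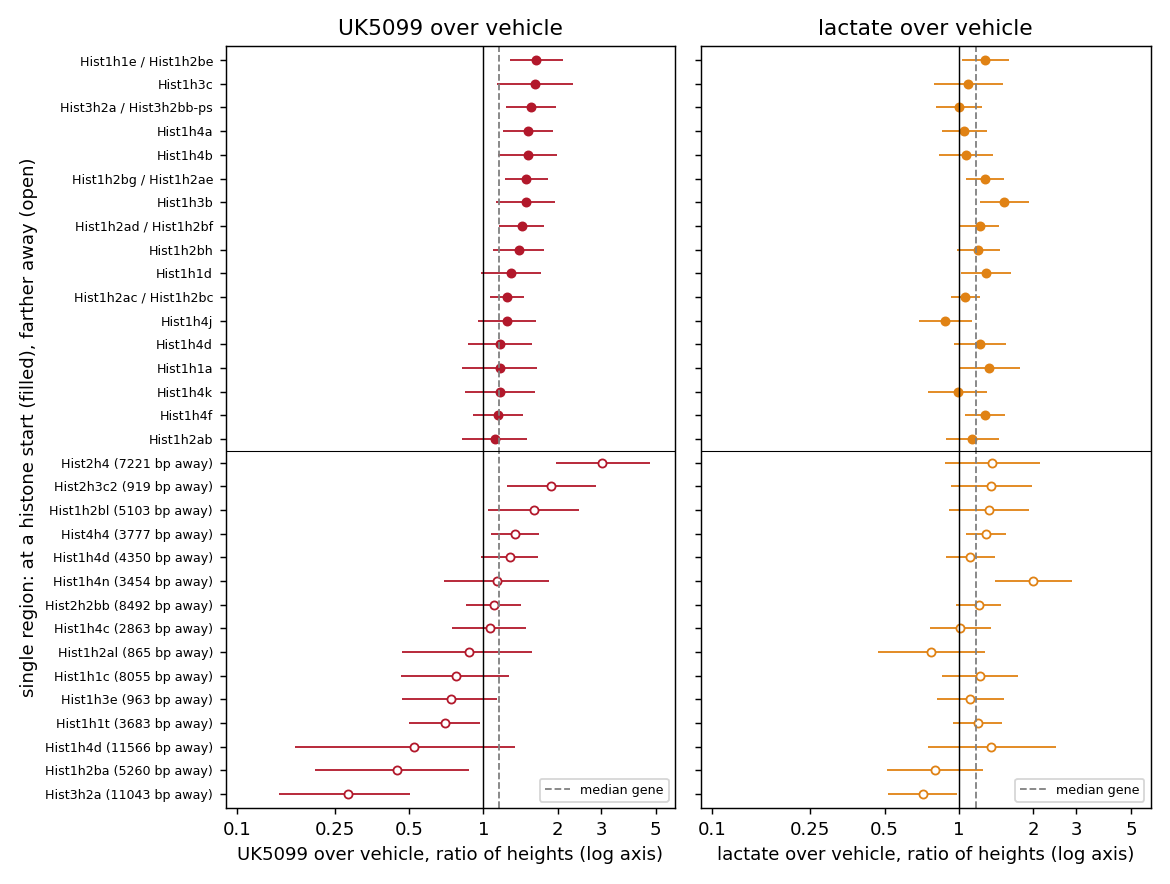
Ratio of heights (log axis) of UK5099 over vehicle, left, and of lactate over vehicle, right, for 32 solved single regions; filled points lie within 500 bp of the named histone gene starts, open points lie farther away, bars are 95% counting intervals and the dashed line is the median of all genes. All 17 filled points lay above 1 in UK5099, between 1.11 and 1.64, whereas the 15 open points ran from 0.283 to 3.03.

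Single regions showed which shared promoters carried these values. The region on the head-to-head promoter of *Hist1h2ac* and *Hist1h2bc* was the highest, at 277 in UK5099, 236 in lactate and 222 in vehicle, a ratio of 1.25 (1.07 to 1.46) for UK5099. The *Hist1h2ae* and *Hist1h2bg* region, on the 179 bases printed above, stood at 185 in UK5099, 158 in lactate and 124 in vehicle. UK5099 over vehicle was 1.49 (1.22 to 1.82) there. Another H2A and H2B pair, *Hist1h2ad* with *Hist1h2bf*, gave 170 in UK5099, 145 in lactate and 119 in vehicle, a ratio of 1.43 (1.16 to 1.76). In Hist3, the region between *Hist3h2a* and *Hist3h2bb-ps* was at 144 in UK5099, 92.8 in lactate and 92.5 in vehicle, so UK5099 over vehicle was 1.56 (1.23 to 1.96) while lactate over vehicle was 1.0. The gene average of *Hist3h2a* also holds a region 11043 bp from its start, inside *Trim17*, which went the other way at 14.0 in UK5099, 35.3 in lactate and 49.4 in vehicle.

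Some H3 and H4 starts also differed between the treatments. *Hist1h4a* was at 144 in UK5099, 99.9 in lactate and 94.8 in vehicle, and *Hist1h4b* at 100 in UK5099, 70.7 in lactate and 66.1 in vehicle. UK5099 over vehicle was 1.52 (1.21 to 1.91) and 1.51 (1.15 to 2.0) for these starts, and lactate over vehicle 1.05 and 1.07. *Hist1h3b* was high in both treatments, at 100 in UK5099 and 103 in lactate, against 67.2 in vehicle, with ratios of 1.49 (1.13 to 1.96) for UK5099 and 1.53 (1.21 to 1.93) for lactate. The start of *Hist1h3c* was called as a peak only in UK5099, at 64 in UK5099, 43.3 in lactate and 39.7 in vehicle. *Hist1h4f*, by contrast, had 124 in UK5099 and 139 in lactate, against 108 in vehicle, with UK5099 over vehicle at 1.15 (0.907 to 1.45). The promoters of *Hist1h4b* and *Hist1h4f* shared no run longer than 9 of 300 bases, and the counting intervals of their ratios overlapped.

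Not every histone gene had a peak at its start. A peak was called within 500 bp of the start in at least 1 library for 41 of the 66 genes, or 62.1%, close to the 64.5% of all genes in the table. Among the 25 without one were 8 of the 12 H3 genes, 4 of the 18 H2B genes and 7 of the 10 Hist2 genes. A start peak was called for 4 of 6 H1, 12 of 18 H2A and 7 of 12 H4 genes. The H3 count depends on the 500 bp limit. The nearest peak lay 532 to 963 bp away for *Hist1h3f*, *Hist1h3a*, *Hist1h3h*, *Hist2h3c2* and *Hist1h3e*. The duplicated genes were among the 25 with no start peak. The promoters of *Hist2h2aa1* and *Hist2h2aa2* share a run of 219 of 300 bases, over the full windows, and those of *Hist2h3c1* and *Hist2h3c2* a run of 231. Reads of 42 bases were sequenced in pairs, and the authors kept only matched pairs that mapped uniquely. Pairs that fall wholly within identical copies should therefore be missing from the heights. Pairs with a read in unique sequence may have been kept.

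To see how much sequence is copied, each stretch of 42 bases within 500 bp of a start was looked up on the assembled chromosomes. The lookup took single stretches and not pairs, so it does not show which reads are missing from the heights. The share with an exact copy elsewhere was 100% for *Hist1h2ap* and *Hist1h2br*, 95.6% for *Hist2h3c1* and *Hist2h3c2*, 92.9% for *Hist1h4n*, 69.6% for *Hist2h2aa1* and 61.1% for *Hist2h2aa2*. These 7 genes had the highest shares, followed by *Hist1h2ae* at 53.5%, and none of the 7 had a peak at its start. The median shares were nevertheless alike, 32.7% in the 25 genes with no start peak and 30.7% in the 41 with one. Genes with hardly any copied sequence also lacked a start peak, such as *Hist2h4* at 2.50%, *Hist2h2bb* at 0.312%, and *Hist1h1t*, *Hist1h3f* and *Hist4h4* at 0%, with *Hist1h3f* only just outside at 532 bp. The part of copied sequence in the heights was not tested.

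**Figure D4:**
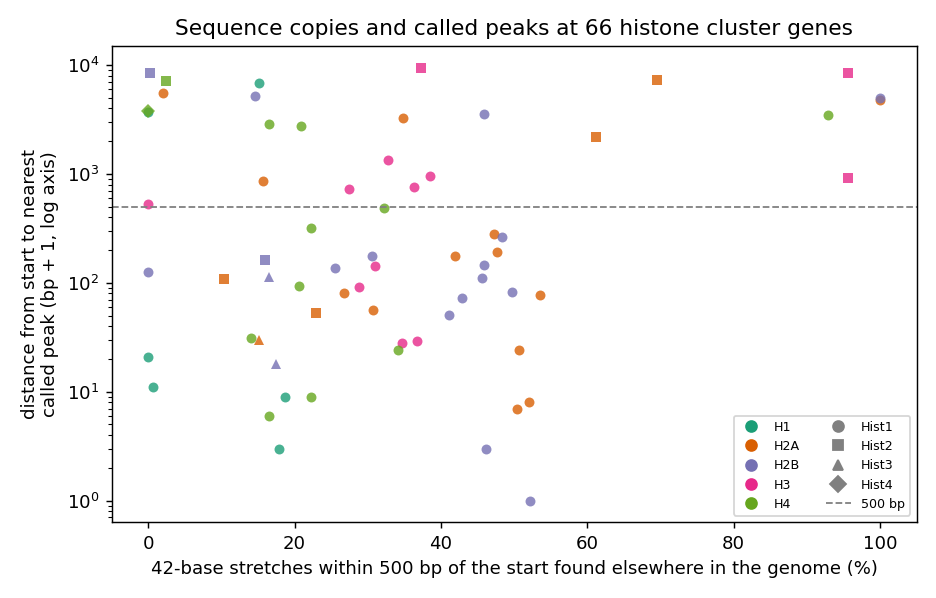
Share of 42-base stretches within 500 bp of the start that occur elsewhere in the genome (%, horizontal axis) and distance from the start to the nearest called peak (bp + 1, log axis) for the 66 histone cluster genes, with colour for the histone type, shape for the cluster and a dashed line at 500 bp. The 7 genes with shares of 61.1% or more all lay above the line, and genes with shares near 0% lay on both sides of it.

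Genes that supply and regulate histones outside the clusters were compared from fixed lists. Of 14 replication-independent histone genes, which encode variants made throughout the cell cycle or in special cells, 13 were measured. Their median was 1.21 for UK5099 over vehicle, with none at 1.5 or more or at 0.5 or less and 8 above the median gene. *H3f3a*, for the variant H3.3, stood at 92.0 in UK5099, 76.6 in lactate and 61.8 in vehicle, with ratios of 1.49 for UK5099 and 1.24 for lactate. *H2afy*, for macroH2A, was the only one of the list below 1 in UK5099, at 25.3 in UK5099 and 40.5 in lactate, against 33.3 in vehicle. For lactate over vehicle the list's median was 1.22, with *Hils1*, a linker histone gene of spermatids, at 1.60.

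The 19 genes for transcription and 3′ processing of histone mRNA were all measured and all above 1 in both comparisons. Most genes were above 1, however, with 14291 of 18889 for UK5099 over vehicle and 15701 of 18890 for lactate over vehicle. Their median was 1.29 for UK5099 over vehicle, with 15 above the median gene, and 1.22 for lactate over vehicle, with 17 above it. *Cstf2*, a cleavage stimulation factor, was at 65.0 in UK5099 and 66 in lactate, against 37.9 in vehicle, and was the only one at 1.5 or more, with ratios of 1.71 for UK5099 and 1.74 for lactate. *Npat*, the coactivator of the clusters, stood at 305 in UK5099, 241 in lactate and 213 in vehicle, with 1.43 (1.23 to 1.67) for UK5099 and 1.13 (0.990 to 1.30) for lactate. *Slbp*, for the stem-loop binding protein, had 1.28 in both. The lowest in UK5099 over vehicle were *Cpsf3* at 1.08 and *Eri1* at 1.09, for an endonuclease that cuts the mRNA and an exonuclease that trims it.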

How the data were processed

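ATAC-seq was performed on cryopreserved organoid cells, with 1 library per treatment. Per the study's methods, read pairs were aligned with BWA, duplicates and ambiguous reads were removed, reads were extended in silico and stacked in bins, and each library had its own peak calls with no control. BWA, MACS3 and mm10 stand in the submitters' processing notes, while the methods name an earlier MACS. Whether reads were shifted for the transposase was not given in the sources used here, nor how many cultures a library held. The deposited signal column of each library is the average peak height per gene, which the authors averaged over merged regions. Peaks of a further library, not analysed here, also entered the merged regions. Other deposited columns give region counts, peak flags and peak positions.

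Multiplied by the number of regions, heights came in whole steps of 1.0 in UK5099, 0.471 in lactate and 0.575 in vehicle, and division by the step gave stacked reads. As coverage at a maximum these were not put to a count test, and overlapping read pairs make the Clopper-Pearson intervals too narrow. Ratios used no pseudocount. Regions were solved from sums over neighbouring genes and annotated with GENCODE M21. Named genes were all Hist2, Hist3, Hist4 and H1 genes, per comparison the 6 highest and 6 lowest ratios, the 4 highest and 4 lowest heights, and the 2 highest and 2 lowest of each list. The genes and lists were chosen with earlier results of these data known. Alternatives were a pseudocount, a height filter, 2 scalings, other thresholds and other ways to count genes. The computation was tested on simulated data. Python 3.11.15, pandas 2.3.3 and scipy 1.17.1 were used.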

Additional observations from a re-analysis of the deposited data

How the results depend on the processing

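The median ratio of the histone genes stayed above 1 in all 3 comparisons under the alternatives run, while single ratios between 1 and the median gene, such as *Hist1h2ac* in UK5099 over vehicle, are below 1 after scaling by the median of ratios. Against vehicle, scaling by the median of ratios put the histone median at 1.13 in UK5099 and 1.05 in lactate, and scaling to the same total at 1.12 in UK5099 and 1.06 in lactate. With only genes of 1 merged region it was 1.21 for UK5099 over vehicle and 1.15 for UK5099 over lactate. Solved regions at starts, an alternative added after seeing the data, gave 1.39 for UK5099 over vehicle, 1.20 for lactate over vehicle and 1.18 for UK5099 over lactate, and those of them called in all 3 libraries 1.36, 1.18 and 1.18 in the same order. The count at 0.5 or less in UK5099 over vehicle was 2 with every gene counted, 0 with a pseudocount of 5 and 0 with a filter at the lower quartile of height. The count at 1.5 or more in lactate over vehicle was 3 with every gene counted. For UK5099 over lactate it was 1 with the height filter and 1 with 1 region only, and at the inverse of 1.5 or less there were 2. Of 129 single ratios, 53 and 54 moved beyond their counting interval under the scalings and none did with the pseudocount. No paired analysis was possible because each treatment had 1 library. Low heights rest on few reads, 11 in UK5099 for *Hist1h2ba*, and UK5099 would be the shallowest library if the deposited scaling equalised depth.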

Other observations

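The 10 histone chaperone genes, which escort histones to DNA, were all measured. Their median was 1.16 for UK5099 over vehicle and 1.24 for lactate over vehicle. *Chaf1a*, for the large subunit of the assembly factor that acts behind the replication fork, stood at 79.8 in UK5099, 74.8 in lactate and 51.0 in vehicle, ratios of 1.56 for UK5099 and 1.47 for lactate. *Hat1*, for an acetyltransferase of newly made H4, stood at 91.0 in UK5099 and 132 in lactate, against 81.6 in vehicle, ratios of 1.12 for UK5099 and 1.62 (1.32 to 2.0) for lactate. *Asf1a* at 1.05 and *Daxx* at 1.06 were lowest in UK5099 over vehicle.

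The other genes that lie among the Hist1 genes were also described. Leaving out the span to the distant *Hist1h2al*, a choice made after seeing the data, 20 such genes had a median of 1.17 for UK5099 over vehicle, with 12 above the median gene, and 1.08 for lactate over vehicle, with 6 above it. Some of them, such as Gm11292, hold regions that are also assigned to histone genes, so the comparison is not independent of these. The vomeronasal receptor genes *Vmn1r210* and *Vmn1r211* were highest in UK5099 over vehicle, at 3.16 and 2.61, and *Vmn1r216* lowest at 0.348, all at heights of 27 or less in every library. *Vmn1r210* and *Vmn1r211* had a called peak in UK5099 alone and *Vmn1r216* in vehicle alone, so among the libraries compared each was listed through the one in which it was highest. With the whole span included, 179 counted genes had medians of 1.14 in both comparisons. For scale, 34 Hox genes had medians of 1.24 for UK5099 over vehicle and 1.30 for lactate over vehicle, and 106 cytosolic ribosomal protein genes had 1.18 for UK5099 and 1.16 for lactate.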
